A study of Homo sapiens and Homo sapiens
Mus with 12 samples.

Results

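Metallothionein genes, the transcription factor that reads zinc for them and 2 of the zinc transporters of the same pathway were followed in UM-UC-3 cells with knockdown (KD) of CDH11, a cell adhesion cadherin. The set was given by gene name, with earlier results of these data known. It holds the metallothioneins MT2A, MT1X, MT1E, MT1F, MT1G and MT1M, the zinc-sensing factor MTF1, the zinc exporter SLC30A1 and the zinc importer SLC39A10. All 9 genes were rows of the count table of cultured cells, among 21466 genes with values, and 8 of them were rows of the human count table of xenograft tumors, among 26813. MT1M was not analysed here in the tumors.

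UM-UC-3 is an established line of advanced bladder cancer. Every group carried a lentiviral hairpin with GFP and was sorted for GFP, and the groups were shCtrl (a non-silencing hairpin), sh#1 and sh#2 (a different CDH11 hairpin each). The cultured cells gave 3 libraries per group, taken after 24 h of preculture. The tumors came from the same 3 kinds of cells, placed under the skin of 5-week-old nude mice in Matrigel and sampled at 4 weeks, with 5 tumors per group. Nude mice lack T cells but keep other host cells, and the tumor RNA holds mouse transcripts as well.

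Metallothioneins are small proteins whose many cysteines bind zinc, copper and cadmium, and they buffer free zinc and take up reactive oxygen. When zinc or another metal rises, MTF1 binds metal response elements, short motifs in the promoters of MT1 and MT2 genes and of SLC30A1, and raises their transcription. SLC30A1 encodes ZnT1, which carries zinc out of the cell through the plasma membrane, and SLC39A10 encodes ZIP10, which carries zinc in. Glucocorticoids and hypoxia are also known to raise metallothionein transcripts. MT2A is usually the most abundant isoform in human tissues, and metallothioneins have been studied in bladder cancer in relation to metal exposure and drug resistance.

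The human MT1 and MT2 genes, with MT3 and MT4, stand side by side on chromosome 16, from 56565073 to 56684196 in hg38, a stretch of 119.1 kb with 16 annotated gene symbols, 11 of them protein coding. CDH11 lies on the same chromosome, 8.26 Mb away. MT2A spans 56608584 to 56609497 on the plus strand and MT1X spans 56682470 to 56684196 on the same strand. MTF1 lies on chromosome 1, minus strand, from 37809574 to 37859592, SLC30A1, also a minus-strand gene, on that chromosome from 211571568 to 211579161 and SLC39A10 on chromosome 2 from 195575977 to 195737702 on the plus strand. The promoters of MT2A, MT1X and SLC30A1 are shown because these 3 genes passed the test together in cultured sh#2 cells. Each is the RefSeq sequence of 300 bases (GRCh38.p14), 250 before the gene start and 50 after it, written 5′ to 3′ on the strand of the gene. Capitals mark the core of the metal response element, searched as TGCACNC and TGCGCNC on both strands, and the marked matches do not overlap.
MT2A promoter, chr16:56608334-56608633, plus strand: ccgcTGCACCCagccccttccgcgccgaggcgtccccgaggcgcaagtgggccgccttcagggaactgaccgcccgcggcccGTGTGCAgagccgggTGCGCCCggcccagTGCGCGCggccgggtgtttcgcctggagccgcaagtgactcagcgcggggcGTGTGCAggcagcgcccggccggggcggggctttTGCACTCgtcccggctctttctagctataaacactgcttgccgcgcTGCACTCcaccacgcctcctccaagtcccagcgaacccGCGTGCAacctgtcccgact
MT1X promoter, chr16:56682220-56682519, plus strand: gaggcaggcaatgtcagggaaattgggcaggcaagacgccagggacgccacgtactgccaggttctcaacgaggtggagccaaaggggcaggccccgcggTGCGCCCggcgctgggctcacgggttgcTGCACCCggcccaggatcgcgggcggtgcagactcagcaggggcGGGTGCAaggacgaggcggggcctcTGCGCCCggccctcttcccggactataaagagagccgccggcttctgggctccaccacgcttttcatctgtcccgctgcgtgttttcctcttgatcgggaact
SLC30A1 promoter, chr1:211579112-211579411, minus strand: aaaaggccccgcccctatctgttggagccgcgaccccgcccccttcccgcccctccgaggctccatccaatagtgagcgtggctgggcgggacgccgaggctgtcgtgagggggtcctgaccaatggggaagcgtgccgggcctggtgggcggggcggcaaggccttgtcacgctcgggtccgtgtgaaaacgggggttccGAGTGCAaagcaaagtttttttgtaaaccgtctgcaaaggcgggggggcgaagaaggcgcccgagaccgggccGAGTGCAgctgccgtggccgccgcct

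The MT2A window held 8 matches, the MT1X window 4 and the SLC30A1 window 2. The matches of MT2A ran from position -246 to position 30 relative to the gene start, and those of MT1X from -150 to -53. Of 35116 RefSeq promoter windows of this length, 29.55% held at least 1 match, 8.60% at least 2, 0.601% at least 4 and 0.0199% (7 windows) at least 8. Of the 2 windows of SLC39A10, 1 held 1 match and the other held 0, and the MTF1 window held 0. Windows were found for 5 of the 9 genes. A match describes the letters only and does not show that MTF1 was bound there.

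Near-identical copies limit how far single metallothionein transcripts can be told apart with reads of 75 bp. MT2A and MT1X transcripts were 84.3% identical over 383 aligned bases (GENCODE 44), with a longest identical run of 63 bases. No stretch of 75 bases of the MT2A transcript occurred in another gene (0 of 327). In MT1X, 119 of 330 stretches occurred elsewhere, 92 of them in the gene ENSG00000259827, 22 in MT1G and 13 in the pseudogene MT1XP1. MT1G shared 22 of its 336 stretches, so the small MT1G counts are uncertain. MT1X shared a larger part of its stretches, so its counts and its share of the family can also depend on how shared reads were assigned.

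Cultured libraries had 2273182 to 2777019 counts on genes, and tumors 414849 to 1248977 on human genes and 94406 to 220238 on mouse genes. In sh#1 tumor 1, 30.02% of counts were on mouse genes, against 10.4% to 18.8% in the other 14 tumors. CDH11 itself had 2 to 4 counts in the cultured shCtrl libraries, 0 to 1 in sh#1 and 0 to 2 in sh#2, too few for a test. In tumors it had 5 to 32, 1 to 9 and 2 to 14 counts in these groups. Of the epithelial markers, KRT8 and KRT18 were counted in every library while EPCAM and CDH1 were at 0 in all cultured ones, and VIM had 5189 to 8893 counts there. Of the urothelial markers, UPK1B and UPK3A were at 0 in the cultured libraries, and UPK2, KRT20, TP63 and KRT5 had at most 1 count in each. GATA3 had 2 to 6 counts there, PPARG 1 to 8 and UPK1A 0 to 20. The deposited barcode list put each group of tumors in a library mix of its own, so a group and its mix cannot be told apart in any tumor comparison below. The labels do not say that cultured replicates were separate cultures, so p-values measure the spread between these libraries.

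Nearly all metallothionein RNA in the cultured cells was MT2A. In shCtrl cells MT2A made up 98.8% ± 0.113 (SD, n = 3) of the counts on the 12 metallothionein rows of that table, and MT1X 1.17% ± 0.114. Per length of transcript, MT2A stood at 19340 ± 1557 (SD, n = 3) normalized CPM per kb in shCtrl cells and MT1X at 227 ± 3.98. SLC39A10 followed at 5.30 ± 0.513, SLC30A1 at 1.88 ± 0.323 and MTF1 at 1.32 ± 0.337 CPM per kb, and the means of the last 2 were apart by less than the sum of their SDs. CPM is the read count scaled to the library's depth after TMM scaling, and the order assumes reads along the whole transcript, which the sources used here do not state. The other family members were nearly silent. MT1G had 6 counts over the 9 cultured libraries (0 to 2 in each), MT1E and MT1F had 1 each, and MT1M had 0. A count of 0 over the 21477868 counts of these libraries allows a level of up to 0.140 CPM, and this limit covers counting error only.

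MT2A rose in sh#2 cells. Its normalized CPM was 7065, 8281 and 7916 for the 3 shCtrl libraries, against 8986, 9037 and 8294 with sh#1, then 14183, 16515 and 17588 in sh#2. Every sh#2 library stood above every other library, and the lowest sh#1 library was just above the highest shCtrl library. The means were 7754 ± 624 in shCtrl, 8772 ± 415 in sh#1 and 16100 ± 1741 in sh#2 (SD, n = 3 each). Tested with edgeR (quasi-likelihood, q values adjusted by Benjamini-Hochberg over all 9859 genes tested), the log2 fold change (log2FC, with its standard error, SE) against shCtrl was 1.05 (SE 0.067, q = 2.29e-13) with sh#2 and 0.18 (SE 0.067, q = 0.0564) with sh#1. The threshold in cultured cells was a q value of 0.05, which sh#1 missed. MT2A in sh#1 was past it when shCtrl replicate 2 (q = 0.0253), sh#2 replicate 1 (q = 0.0122) or sh#2 replicate 3 (q = 0.0260) was left out, and not when any other library was, with the lowest value, 0.11 (q = 0.253), without shCtrl replicate 1 and the highest q, 0.260, without sh#1 replicate 1. DESeq2 gave q = 0.247 for it. The hairpins differed, with a log2FC of -0.88 (SE 0.067, q = 4.35e-11) of sh#1 against sh#2. In these bulk libraries more cells with a transcript and more transcript per cell cannot be told apart.

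MT1X rose with both hairpins and by more with sh#2. Its normalized CPM was 92.9, 89.8 and 92.2 in shCtrl, against 143.8, 131.7 and 129.9 with sh#1 and 275.2, 301.3 and 297.4 with sh#2, from raw counts of 220 to 243, 304 to 370 and 592 to 633. The 3 groups did not overlap. The log2FC was 0.56 (SE 0.085, q = 7.96e-07) with sh#1 and 1.67 (SE 0.079, q = 4.03e-25) with sh#2 in the same edgeR test. Between the hairpins it was -1.11 (SE 0.075, q = 7.68e-18) for sh#1 against sh#2. Both hairpin comparisons share the shCtrl libraries. Of 4 mesenchymal markers tested in cultured cells, 1 rose with sh#2 (VIM, a filament, by 0.87, q = 1.91e-19) and 2 fell with sh#1 (FN1, log2FC -1.53, q = 0.000202, and CDH2, -0.58, q = 0.00207). Of 2 epithelial markers tested, KRT18 rose with sh#1 (0.54, q = 2.68e-07) and 0 passed with sh#2. Of all genes, 22.4% were called with sh#1 and 38.3% with sh#2. With sh#2 UPK1A, the 1 urothelial marker of 9 with enough counts for a test (0 to 20 per library), rose by 3.39 (q = 7.41e-07), while its sh#1 value was 0.39 (q = 0.781). The part of these in the metallothionein levels was not tested.

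**Figure D1:**
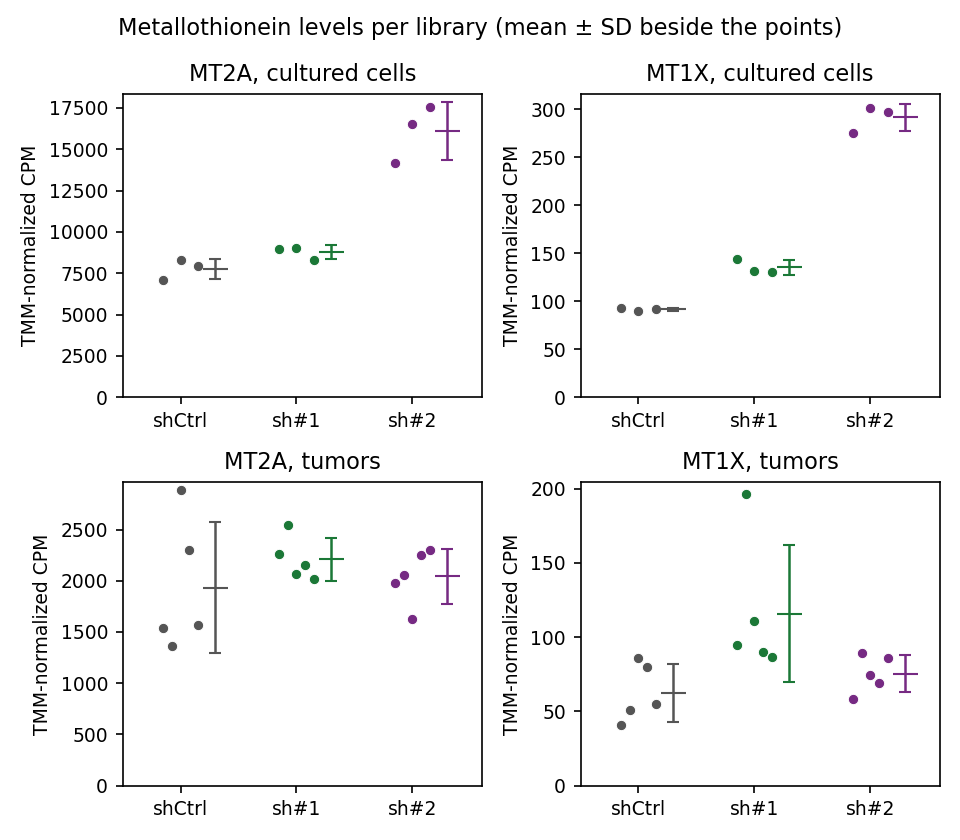
TMM-normalized CPM (linear axes from 0) of MT2A and MT1X in each library of cultured cells (3 per group) and each tumor (5 per group), with the mean and SD beside the points. In cultured cells the sh#2 libraries stand above all others for both genes, while the tumor groups overlap for MT2A and sh#1 tumor 2 is the highest point for MT1X.

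SLC30A1, the exporter that MTF1 is known to induce, also rose in sh#2 cells. Its raw counts were 25, 25 and 35 in shCtrl, against 26, 28 and 34 with sh#1 and 48, 36 and 38 with sh#2, or 9.80 to 13.3, 10.6 to 12.1 and 17.1 to 22.3 normalized CPM. The sh#2 libraries did not overlap with either other group, while sh#1 lay within the range of shCtrl. The log2FC was 0.79 (SE 0.22, q = 0.00307 in edgeR's test) with sh#2 and 0.06 (SE 0.23, q = 0.900) with sh#1. The difference of sh#1 from sh#2 was -0.74 (SE 0.22, q = 0.00905), and it missed the threshold in DESeq2 (q = 0.101) and without sh#2 replicate 1 (q = 0.0683).

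SLC39A10, the importer, had its highest levels in shCtrl, with no call. It had 29.8, 28.6 and 24.7 normalized CPM in shCtrl, against 22.5, 25.6 and 21.4 with sh#1 and 22.8, 19.0 and 21.4 with sh#2. All sh#2 libraries were below all shCtrl libraries, and sh#1 overlapped with shCtrl. The log2FC was -0.26 (SE 0.16, q = 0.265) with sh#1 and -0.39 (SE 0.17, q = 0.0652) with sh#2. With upper quartile normalization (q = 0.0410) or a minimum of 10 counts in every library (q = 0.0492) the sh#2 difference was past the threshold, while DESeq2 gave q = 0.272 and leaving out each library gave q values from 0.0524 to 0.206.

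MTF1 itself gave no call in cultured cells. Its raw counts were 19, 28 and 33 in shCtrl, against 35, 22 and 33 with sh#1 and 26, 19 and 17 with sh#2, and the groups overlapped. The log2FC was 0.17 (SE 0.25) with sh#1 and -0.09 (SE 0.27) with sh#2, at 17 to 35 counts per library. The activity of MTF1 depends on zinc binding and was not measured.

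**Figure D2:**
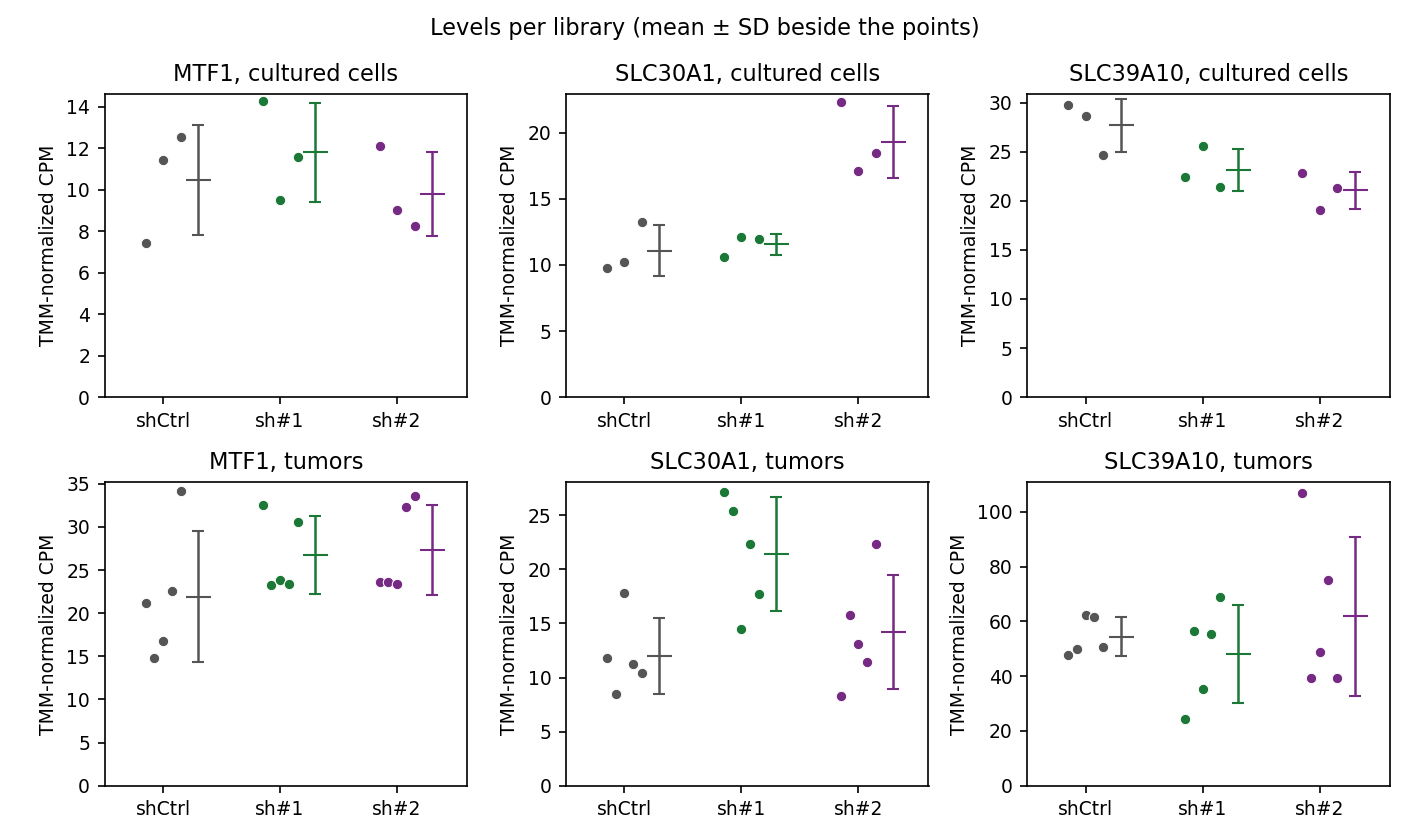
TMM-normalized CPM (linear axes from 0) of MTF1, SLC30A1 and SLC39A10 in each cultured library (3 per group) and each tumor (5 per group), with the mean and SD beside the points. SLC30A1 is highest in the 3 cultured sh#2 libraries and in tumors has its highest mean in sh#1 (21.4 ± 5.26 CPM), and MTF1 overlaps between all groups.

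With both hairpins pooled, as the study compared them, 0 of the 5 genes that passed the low-count filter were called in cultured cells, where 17.4% of all genes tested were. At an unadjusted p under 0.05 there were 3, MT2A (log2FC 0.68, SE 0.27, q = 0.126), MT1X (1.21, SE 0.37, q = 0.0602) and SLC39A10 (-0.32, SE 0.14, q = 0.134). This fit takes the gap between the hairpins as spread. Fitted as 3 groups and contrasted as the average of sh#1 and sh#2, the same counts called MT2A (0.61, q = 1.94e-09) and MT1X (1.11, q = 5.34e-19), and DESeq2 called MT1X (q = 0.00839). MT1X was also past the threshold without sh#1 replicate 2 (q = 0.0378) or 3 (q = 0.0368). By hairpin, sh#1 had 1 of 5 called against 22.4% of all genes, sh#2 had 3 of 5 against 38.3%, and sh#1 against sh#2 had 3 of 5 against 24.7%.

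**Figure D3:**
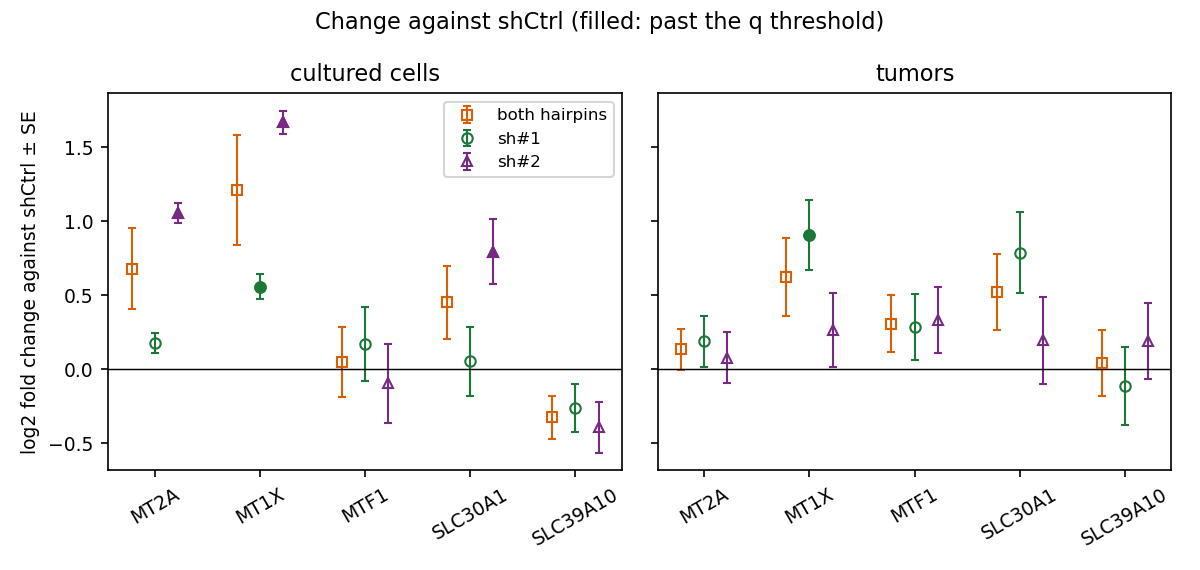
Log2 fold change against shCtrl with its SE for the 5 tested genes, for both hairpins together, sh#1 and sh#2, in cultured cells and in tumors; filled symbols are past the q threshold (0.05 in cells, 0.1 in tumors). MT1X and MT2A reach 1.67 and 1.05 with sh#2 in cultured cells, and in tumors the only filled symbol is MT1X with sh#1 at 0.91.

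The whole family was also summed, so that reads divided between its own rows count once. Reads shared with copies outside these rows, such as ENSG00000259827, can still be missing from the sum. All metallothionein rows together took 0.776%, 0.895% and 0.867% of gene counts in shCtrl libraries, against 0.953%, 0.931% and 0.864% with sh#1 and 1.31%, 1.52% and 1.60% with sh#2. The sh#2 libraries stood apart from the others. The mean share was 0.846% ± 0.0619 in shCtrl, 0.916% ± 0.0463 in sh#1 and 1.48% ± 0.152 in sh#2 (SD, n = 3). In a two-sided exact permutation test, sh#2 against shCtrl gave p = 0.10, the smallest value 3 against 3 libraries allow, and both hairpins against shCtrl gave p = 0.107 (0.286 for each after adjustment over 8 comparisons). Without sh#1 replicate 3 the latter was p = 0.0357 by the same exact test, with a difference of 0.417 percentage points against 0.350 with all libraries. Taken over TMM-scaled library totals, the difference for both hairpins was 0.480 percentage points (unadjusted exact p = 0.0714). For sh#1 against shCtrl it was 0.106 on that scale (exact p = 0.10), against 0.0703 without it (exact p = 0.30).

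Within the family the balance also moved. MT1X made up 1.30%, 1.07% and 1.15% of metallothionein counts in shCtrl, against 1.57%, 1.44% and 1.54% with sh#1 and 1.90%, 1.79% and 1.66% with sh#2. Each KD library was above each shCtrl library. The means were 1.65% ± 0.172 (SD, n = 6) in CDH11 KD and 1.17% ± 0.114 (SD, n = 3) in shCtrl, and the exact permutation p was 0.0119, the smallest this design allows, or 0.0476 after adjustment over 8 comparisons. This measure was chosen after its values were seen.

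The rest of zinc handling was read from lists of transporters. Of 10 zinc exporter genes, SLC30A1 included, 6 were tested in cultured cells. With sh#2, 3 rose and 1 fell, where 38.3% of all genes were called, with a median log2FC of 0.65 over the list against -0.0063 over all genes. SLC30A9, a mitochondrial zinc transporter, rose by 0.65 (SE 0.17, q = 0.00206) and SLC30A6, of the Golgi, by 0.65 (SE 0.26, q = 0.0419), while SLC30A5, also of the secretory pathway, fell by 1.12 on the log2 scale (SE 0.31, q = 0.00285). With sh#1, 0 of these 6 passed the threshold, where 22.4% of all genes were called. SLC30A9 alone passed for both hairpins together (0.51, SE 0.17, q = 0.0428), where 17.4% of all genes were called.

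Of 14 zinc importer genes, 11 were tested, and 0 rose in any comparison with shCtrl. With sh#2, 4 fell, and the list median was -0.40 against -0.0063 over all genes. With sh#1, 3 fell, with a median of -0.26 against -0.0076. These counts are near the background, since 38.3% of all genes were called with sh#2 and 22.4% with sh#1, in either direction. SLC39A13 (ZIP13), an importer of intracellular vesicles, fell in both, from 27.7 ± 2.39 normalized CPM in shCtrl to 19.1 ± 3.59 in sh#1 (log2FC -0.55, q = 0.0183) and 14.8 ± 2.48 in sh#2 (-0.91, q = 0.000144; SD, n = 3 each). SLC39A14 (ZIP14), which brings zinc and iron into cells, fell with sh#2 from 64.4 ± 6.73 to 45.3 ± 3.59 CPM (-0.51, q = 0.000896). SLC39A7 (ZIP7), which releases zinc from the endoplasmic reticulum, fell with sh#2 by 0.75 (q = 0.000292), and SLC39A3 fell with sh#2 by 0.58 (q = 0.0111) on the log2 scale. With sh#1, SLC39A9 fell by 0.44 (q = 0.0257) and SLC39A1 by 0.41 (q = 0.0159) on that scale. These are edgeR tests adjusted over all genes. In tumors 0 of the 5 exporters and 0 of the 8 importers tested passed the threshold in any comparison. Few genes were called there at all, 1.19% to 2.68% of those tested.

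Among 11 tested genes of copper handling, 3 rose and 2 fell with sh#2, where 38.3% of all genes were called, and 0 passed with sh#1. SCO2, a copper chaperone of cytochrome c oxidase, fell from 21.7 ± 0.266 to 8.08 ± 2.90 normalized CPM (log2FC -1.42, q = 3.55e-06). STEAP3, a metalloreductase, rose by 0.64 (q = 0.000446). In tumors 10 of the list were tested, and 1 fell with each hairpin, where 1.48% of all genes were called with sh#1 and 2.68% with sh#2, STEAP2 with sh#1 (log2FC -1.16, q = 0.0592) and COX17, a chaperone that delivers copper to mitochondria, with sh#2 (-0.49, q = 0.0685).

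Glucocorticoid-responsive genes were followed because glucocorticoids are known to raise MT2A and MT1X. In cultured cells 6 of the 8 tested rose with each hairpin, where 1162 of all 9859 genes rose with sh#1 and 1920 with sh#2, and the median log2FC over the 8 was 1.19 with sh#1 and 1.203 with sh#2. DUSP1, a phosphatase of stress kinases, rose by 2.18 and 2.29 with sh#1 and sh#2. PER1, a clock gene, rose by 1.30 and 1.46 (the largest q of these 4 values was 0.000156). FKBP5, which encodes a chaperone partner of the glucocorticoid receptor, had log2FC values of -0.32 (q = 0.328) with sh#1 and -0.82 (q = 0.00621) with sh#2. NR3C1, the glucocorticoid receptor, was at -0.07 (q = 0.576) and 0.14 (q = 0.129). Both were named after their values were seen, and the part of glucocorticoid signalling in the metallothionein levels was not tested. In tumors 0 of 8 passed with either hairpin, where only 1.48% of all genes were called with sh#1 and 2.68% with sh#2.

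Of 10 partners and further targets of MTF1, 9 were tested, and 1 rose and 1 fell with each hairpin, where 22.4% of all genes were called with sh#1 and 38.3% with sh#2. TXN (thioredoxin) rose with sh#1 by 0.19 (SE 0.061, q = 0.0172) and with sh#2 by 0.38 (SE 0.061, q = 8.91e-07), from 407 ± 5.05 normalized CPM to 465 ± 14.8 and 531 ± 24.2 (SD, n = 3). KEAP1, the sensor that restrains NRF2, fell by 0.47 (q = 0.0434) and 0.54 (q = 0.0167) on the log2 scale. The list median was -0.04 with sh#1 and 0.05 with sh#2, close to that of all genes.

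By the rule for likeness, the 5 genes whose log2 CPM followed MT2A most closely over the 9 cultured libraries were TMSB10 (Pearson r = 0.992), ALDOA (0.992), TMEM258 (0.991), EMD (0.991) and GPI (0.987), among 5395 genes with at least 50 counts on average, and MT1X had r = 0.967. The points share their libraries, and the sh#2 libraries were the highest for MT2A. Over the 15 tumors the same 5 genes had r = 0.57, -0.06, 0.06, 0.39 and 0.46 with MT2A and MT1X had 0.70, while ERGIC1 (0.82), AARS1 (0.80) and HAS2 (0.80) were the closest of 3200 genes.

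In the tumors MT2A was again the main metallothionein, at 96.6% ± 0.428 (SD, n = 5) of the metallothionein counts of shCtrl tumors, but the groups did not separate. Its normalized CPM was 1365 to 2884 (median 1569) in shCtrl, 2015 to 2546 (median 2157) in sh#1 and 1626 to 2302 (median 2060) in sh#2. The shCtrl tumors covered the whole range of both KD groups. The log2FC was 0.19 (SE 0.17, q = 0.731) with sh#1, 0.08 (SE 0.17, q = 0.893) with sh#2 and when each tumor was left out in turn it ranged from 0.086 to 0.38 with sh#1 and from -0.024 to 0.27 with sh#2. The highest sh#1 value was without shCtrl tumor 3 (q = 0.146). Levels in tumors and cultured cells come from tables made separately and are not compared.

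MT1X was higher in sh#1 tumors. Its normalized CPM was 40.8, 50.8, 85.9, 79.9 and 55.0 in the shCtrl tumors, against 94.98, 196.8, 111.0, 90.3 and 86.8 with sh#1 and 58.3, 89.3, 74.8, 68.9 and 85.8 with sh#2. Every sh#1 tumor was above every shCtrl tumor, by a narrow margin at the edge, while sh#2 overlapped with both. With sh#1 the log2FC was 0.91 (SE 0.24) with q = 0.0944 in edgeR's test, under the threshold of 0.1 that the study used for tumors. Without sh#1 tumor 2, the highest, it was 0.61 (q = 0.124). The call was also lost without sh#1 tumor 1 or 3, without shCtrl tumor 1, 2 or 5 and without sh#2 tumor 2, 3, 4 or 5, with q values from 0.108 to 0.237 over these fits and log2FC values from 0.61 to 0.96. It was lost as well with the 2 groups alone (q = 0.214) and with each tumor's mouse content added to the fit (q = 0.199). With sh#2 the log2FC was 0.27 (SE 0.25, q = 0.700).

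As a share of metallothionein counts, which is independent of library scaling, MT1X was 2.57%, 3.58%, 2.89%, 3.35% and 3.38% in shCtrl tumors, against 4.03%, 7.13%, 5.08%, 4.00% and 4.12% with sh#1 and 2.86%, 4.14%, 4.39%, 2.96% and 3.59% with sh#2. The sh#1 tumors did not overlap with shCtrl. The means were 4.88% ± 1.34 and 3.15% ± 0.412 (SD, n = 5), with an exact permutation p of 0.00794, the smallest that 5 against 5 allow (0.0476 adjusted over the same 8 comparisons). Without sh#1 tumor 2 the difference went from 1.72 to 1.16 percentage points (exact permutation p = 0.00794). For sh#2 the mean was 3.59% ± 0.684 and the exact permutation p was 0.254.

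**Figure D4:**
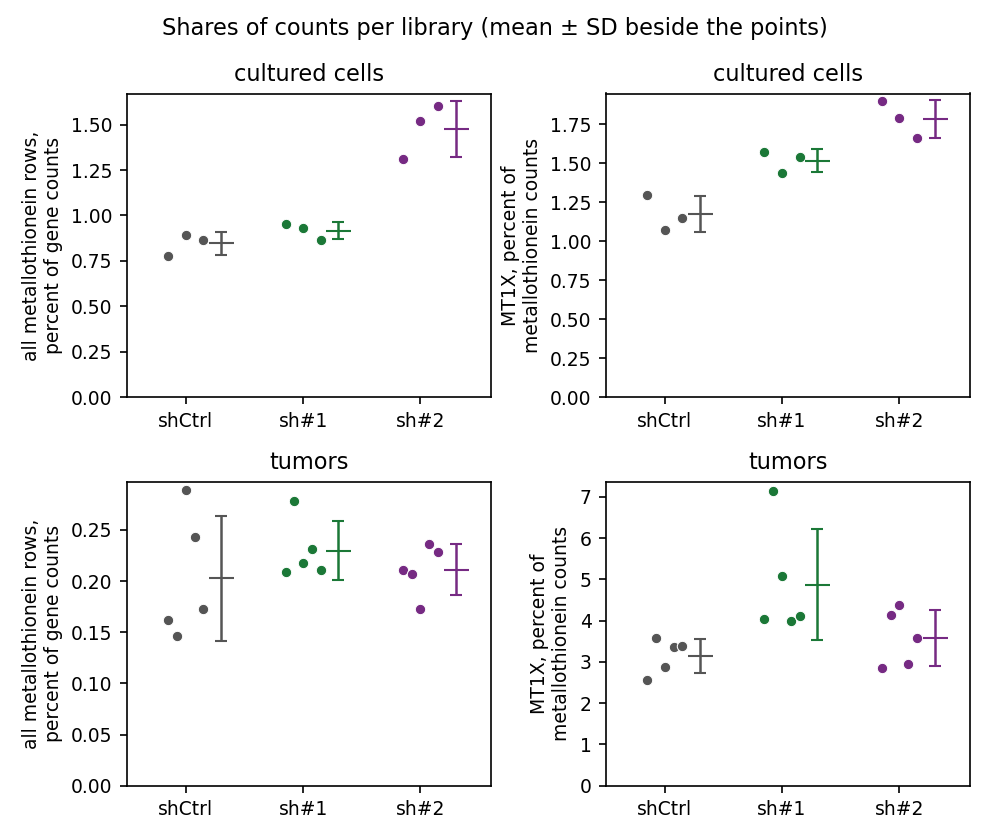
Percent of gene counts on all metallothionein rows (left) and MT1X as a percent of metallothionein counts (right), each on a linear axis from 0, per library of cultured cells (3 per group) and tumors (5 per group), with the mean and SD beside the points. The family share averages 1.48% in cultured sh#2 cells and overlaps between tumor groups, while the MT1X share is above all controls in both cultured KD groups and in sh#1 tumors.

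The other members gave no call in tumors. SLC30A1 had 15, 8, 16, 13 and 7 counts in shCtrl, against 10, 23, 14, 21 and 18 with sh#1 and 6, 12, 14, 11 and 12 with sh#2, and its means were 12.0 ± 3.53, 21.4 ± 5.26 and 14.2 ± 5.31 normalized CPM (SD, n = 5). The sh#1 and shCtrl tumors overlapped. Its log2FC was 0.79 (SE 0.27, q = 0.197) with sh#1 and 0.20 (SE 0.29, q = 0.836) with sh#2, and without shCtrl tumor 3 the sh#1 value was 0.96 (q = 0.0922). MTF1 had 14 to 27, 12 to 31 and 17 to 31 counts, with log2FC values of 0.28 (q = 0.671) and 0.33 (q = 0.547). SLC39A10 ranged from 24.4 to 107 normalized CPM over the 15 tumors, with -0.11 (q = 0.919) and 0.19 (q = 0.809).

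MT1G was the only other metallothionein gene with more than a few tumor counts. It had 2, 4, 3, 3 and 2 counts in shCtrl, against 1, 11, 3, 6 and 5 with sh#1 and 0, 3, 2, 1 and 2 with sh#2. Sh#1 tumor 2, which was highest for MT1X, was also highest for MT1G, and these genes share sequence. Without the low-count filter its log2FC was 1.05 with sh#1 (SE 0.54, q = 0.619). MT1E and MT1F had 1 count each over the 15 tumors, and MT1XP1 had 0 to 3 per tumor.

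For both hairpins together, 0 of the 5 tested genes were called in tumors, where 1.51% of 9184 genes were. At an unadjusted p under 0.05 there were 2, MT1X (log2FC 0.62, SE 0.26, q = 0.341) and SLC30A1 (0.52, SE 0.26, q = 0.391), and DESeq2 also called 0. With sh#1, 1 of 5 was called against 1.48% of all genes, with sh#2 0 of 5 against 2.68%, and in sh#1 against sh#2 0 of 5 against 1.19%. For sh#2 no gene had an unadjusted p under 0.05, and for sh#1 against sh#2 there were 2, MT1X (0.64, SE 0.24, q = 0.331) and SLC30A1 (0.59, SE 0.28, q = 0.471). Without sh#1 tumor 2 the MT1X value was 0.36 (q = 0.614). The family share of counts was 0.203% ± 0.0611, 0.230% ± 0.0288 and 0.211% ± 0.0247 (SD, n = 5) in shCtrl, sh#1 and sh#2 tumors, and the exact permutation p was 0.436 for both hairpins against shCtrl.

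For MT1X, SLC30A1 and MT2A the difference between the hairpins was called in cultured cells and not in tumors. In tumors alone that difference passed the edgeR threshold for none of them (q = 0.331, 0.471 and 0.887), so no order of the hairpins is given there. In log2 CPM, MT1X in sh#1 minus sh#2 was -1.11 in cultured cells and 0.56 in tumors, SLC30A1 was -0.71 and 0.61, and MT2A was -0.87 and 0.12. Permuting the hairpin labels within each system gave exact p-values for this gap of 0.000794, 0.00318 and 0.0171, or 0.00397, 0.00794 and 0.0284 adjusted over the 5 genes tested, and 0.306 for both MTF1 and SLC39A10. The permutation assumes no hairpin difference in either system, so a difference in cultured cells alone can give a small p. It does not test whether the hairpin difference itself differed between the systems. This test was chosen after the values were seen. Without sh#1 tumor 2 the tumor difference of MT1X was 0.35 and the gap -1.46 (exact permutation p adjusted 0.0119). The MT2A gap missed 0.05 without sh#1 tumor 2 (adjusted exact p = 0.0529) or sh#2 tumor 3 (0.0562). In tumors the hairpins were also in different library mixes.

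The mouse host cells of the tumors carry their own metallothioneins. Mouse Mt1 had 15, 22, 17, 7 and 10 counts in shCtrl tumors, against 70, 28, 18, 6 and 23 with sh#1 and 7, 25, 49, 6 and 20 with sh#2, and Mt2 had 1 to 38. Sh#1 tumor 1, with the largest mouse share, was the highest for both. Mt1, the only one of these genes past the filter, had a log2FC of 0.76 (SE 0.44, q = 0.879) in CDH11 KD tumors, or 0.49 without that tumor. By hairpin it was 1.05 (SE 0.46, q = 0.556) with sh#1, where human MT1X was called, and 0.40 (SE 0.48, q = 0.987) with sh#2. Mouse Mtf1 had 0 to 4, Slc30a1 0 to 13 and Slc39a10 0 to 8 counts. Of the 12 host markers, 8 were tested and 0 passed, with 81 to 963 counts for Lyz2 and 70 to 1724 for Col1a1. Whether mouse metallothionein reads were counted on human genes was not tested.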

How the data were processed

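RNA-seq was performed by the authors on 9 cultured libraries and 15 tumors, with single reads of 75 bp mapped to hg38, and raw read counts per gene were deposited by the authors without normalization. Cultured reads were trimmed in CLC Genomics Workbench and mapped with RaNAseq, and tumor reads were trimmed with Trim Galore and mapped with HISAT2, per the study's methods. The counting tool and the handling of mouse reads are not given in the sources used here. For the cultured cells, 13 rows without values were not used. A gene of the glucocorticoid list is not reported here by name.

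Counts were tested with edgeR 4.0.16 (R 4.3.3, TMM, filterByExpr, robust quasi-likelihood fit, Benjamini-Hochberg adjustment over all genes), both hairpins together against shCtrl and 3 groups for each hairpin. Thresholds were q values of 0.05 (cells) and 0.1 (tumors). The study's selection in cells also asked for a log2FC above 1 or below -1, which was not used here. Of the member calls in cells, those of MT2A and MT1X with sh#2 and of MT1X between the hairpins would meet it. Shares were compared by two-sided exact permutation tests (scipy 1.17.1), and log2 CPM between systems with a pseudocount of 0.5. The members and lists were chosen with earlier results of these data known. All members are named, and of each list and comparison at most 4 genes with the largest change past the threshold and a mean of at least 20 counts; FKBP5, NR3C1, STEAP2, UPK1A and HMOX1 were added after their values were seen. Alternatives were DESeq2 1.42.0, upper quartile normalization, other low-count filters, leaving out each replicate, a block on the replicate number, other groupings, summed metallothionein rows and the mouse to human ratio. On simulated cultured counts of 9698 genes, 94.4% of genes changed by 1 on the log2 scale were recovered for both hairpins together, with 7.7% of calls false, and 96.7% of those on 8998 tumor genes, with 8.4% false. For sh#2 alone, 90% were recovered in cultured cells, with 5.5% of calls false. On tumor counts 90.2% were recovered for sh#2, with 10.8% of calls false. Recovery was not split by count level, so it need not hold for low-count members such as SLC30A1 in tumors (6 to 23 counts). The rates for both hairpins together need not hold for genes that differ between the hairpins. In that edgeR fit of the real cultured counts, MT1X was not called at a log2FC of 1.21 (q = 0.0602).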

Additional observations from a re-analysis of the deposited data

Results flagged for a closer look

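MT1X in sh#1 tumor 2 stood apart from its group, at 196.8 normalized CPM against 86.8 to 111.0 in the other 4 sh#1 tumors (Dixon's ratio 0.780, critical value 0.710). It was the only such case in 21 groups of 5 tumors examined, and chance gives about 1 in 20. In that tumor 18.7% of counts were on mouse genes, and it was also the highest for MT1G; the part of either in the value was not tested.

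For 3 genes the gap between cultured cells and tumors in the hairpin difference had an adjusted exact permutation p under 0.05. That permutation assumes no hairpin difference in either system, so the difference in cultured cells alone can give a small p. The gap in sh#1 minus sh#2 (log2 CPM, cultured cells minus tumors) was -1.67 for MT1X, -1.32 for SLC30A1 and -0.99 for MT2A. Each tumor group was in its own library mix, and the part of the mix cannot be told apart.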

How the results depend on the processing

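In cultured cells, the calls of MT2A, MT1X and SLC30A1 with sh#2, of MT1X with sh#1, and of MT2A and MT1X between the hairpins held under every alternative run. The counts of calls below moved with the fit. For both hairpins together in cultured cells, 0 genes were called, against 1 with DESeq2, 2 with 3 groups and the mean of both hairpins, and 0 to 1 when each library was left out. For cultured sh#1, 1 was called, against 2 without a low-count filter, 2 with the replicate block, 2 with only the 2 groups compared, and 1 to 2 when each library was left out. For tumor sh#1, 1 was called, against 0 with only the 2 groups compared, 0 with the mouse to human ratio as a covariate, and 0 to 2 when each tumor was left out. In tumors, sh#1 against sh#2 gave 1 without a low-count filter (MT1X, q = 0.00794) against 0. The difference in family share of cultured KD and shCtrl was 0.269 to 0.417 percentage points when each library was left out. In a check added after seeing the data, leaving out each sh#1 or sh#2 library put the gap between cultured cells and tumors at -1.75 to -1.46 for MT1X, -1.50 to -1.16 for SLC30A1 and -1.08 to -0.91 for MT2A, the last with an adjusted p above 0.05 without sh#1 tumor 2 (-0.936) or sh#2 tumor 3 (-0.909). The cause was not tested in any of these.

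Directions turned only for values that passed no threshold. When each library was left out, cultured MTF1 ranged from -0.14 to 0.20 (both hairpins), -0.021 to 0.33 (sh#1) and -0.29 to 0.060 (sh#2), and cultured SLC30A1 with sh#1 from -0.028 to 0.21, on the log2 scale. In tumors, SLC39A10 ranged from -0.10 to 0.11 (both hairpins), -0.28 to 0.0026 (sh#1) and -0.075 to 0.31 (sh#2), MT2A with sh#2 from -0.024 to 0.27, and MTF1 in sh#1 against sh#2 from -0.13 to 0.042. With the mouse to human ratio as a covariate, tumor SLC39A10 with sh#1 was 0.0032. Over all single genes and alternatives, 694 values kept both direction and side of the threshold, 16 gained a call, 14 lost one and 16 turned.

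Replicates with the same number did not deviate together (correlations from -0.01 to 0.06 in cultured cells, 0 of 9 over 0.1, and -0.10 to 0.13 in tumors, 2 of 15 over 0.1), so the numbers were not taken as pairs. The replicate block moved the cultured sh#1 count from 1 to 2 (MT2A, q = 0.0175) and left the other 7 counts of calls as they were. Summing all metallothionein rows gave log2FC values of 0.18 (q = 0.0439) for cultured sh#1 and 1.06 (q = 3.41e-14) for sh#2. Depth limits MTF1, SLC30A1 and SLC39A10, at 6 to 77 counts per library, and MT1E, MT1F, MT1G and MT1M did not pass the low-count filter.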

Other observations

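HMOX1, which encodes heme oxygenase 1 and is known to be induced by heme, metals and oxidants, was looked up after the metallothioneins and named after its values were seen. In cultured cells it had 34.1, 33.1 and 32.6 normalized CPM in shCtrl, 59.6, 63.2 and 55.5 in sh#1 and 563, 513 and 471 in sh#2. The 3 groups did not overlap. Its log2FC was 0.83 with sh#1 (SE 0.12, q = 1.65e-07) and 3.95 with sh#2 (SE 0.091, q = 2.37e-39) by edgeR, the smallest p of all 9859 genes in the sh#2 comparison. The sh#2 libraries thus stood above sh#1, as for MT2A, MT1X and SLC30A1. Of all 9859 genes tested, 1331 were called lower in sh#1 than in sh#2 in cultured cells. Whether HMOX1 and the metallothioneins share a cause was not tested. In tumors HMOX1 had 254 to 629 normalized CPM in shCtrl, 409 to 855 in sh#1 and 216 to 451 in sh#2, with log2FC values of 0.42 (q = 0.639) and -0.25 (q = 0.779), and the groups overlapped.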
